A study of Mus musculus with 12 samples.

Results

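The 10 genes described here encode the transforming growth factor beta ligands Tgfb1, Tgfb2 and Tgfb3, their receptors Tgfbr1 and Tgfbr2, the signal transducer Smad3, the inhibitory Smads Smad6 and Smad7, the muscle ligand myostatin (Mstn) and its antagonist follistatin (Fst). Their accessible chromatin was read from ATAC-seq peak lists of C2C12 cells, an established mouse myoblast line. A peak was assigned to a gene when its centre lay in the gene body or within 10 kb of it. By this rule 38 of the 34118 peaks of the wild-type (WT) list and 24 of the 27187 peaks of the Runx1 knockout (KO) list belonged to the 10 genes. A peak was called shared when it overlapped a peak of the other list by at least 1 bp and specific when it did not, as in the deposited shared and specific lists.

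The groups compared were WT and Runx1KO C2C12 cells grown with 20% fetal bovine serum, collected at day 0 near confluency, with 3 samples each. Runx1 encodes a RUNX family transcription factor, and the labels do not say whether the knockout line is 1 clone. The samples at day 2 in differentiation medium were not analysed here. Every peak name carries the label of replicate 1 of its genotype, so all values come from 1 library per genotype. Replicate error cannot be given for them, and the genotypes are compared without a test. The labels do not say whether the other replicates decided which peaks were kept. Sequencing depth is unknown. In bulk ATAC-seq, fewer cells with an open site and less opening per cell cannot be told apart.

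Ligands of the TGF-beta family bind a pair of type II and type I receptor kinases. Tgfbr2 is the type II and Tgfbr1 the type I receptor for the TGF-beta ligands. The activated type I receptor phosphorylates Smad3 and its relative Smad2, which enter the nucleus with Smad4 and bind DNA. Smad6 and Smad7 block this relay, Smad7 at the TGF-beta receptors and Smad6 mainly in the branch of the bone morphogenetic proteins, and both are themselves induced by the pathway. In skeletal muscle, TGF-beta and myostatin hold back the differentiation of myoblasts, myostatin limits muscle mass, and follistatin binds and neutralises myostatin and activins.

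The promoters are shown first, divided by whether their window overlapped a peak. A window without a peak can still lie near one, as at Tgfb2 below. The RefSeq promoter table (GRCm38.p6, from 250 bases before to 50 bases after a start) held 8 windows for 7 of the 10 genes, with none used here for Tgfb3, Smad7 and Fst. Of the 8 windows, 4 overlapped a WT peak, beside 29.4% of all 32851 windows of the table. The same 4 overlapped a KO peak, beside 26.8% of all windows. They are those of Tgfbr1 (chr4:47352972-47353271, plus strand), Tgfbr2 (chr9:116175314-116175613, minus strand), Smad3 (chr9:63757945-63758244, minus strand) and Smad6 (chr9:64022010-64022309, minus strand). The windows of Tgfb1 (chr7:25686752-25687051, plus strand) and Mstn (chr1:53061390-53061689, plus strand), shown for contrast, overlapped no peak of either list, nor did those of Tgfb2 and of a second Tgfbr1 start. The sequences run 5′ to 3′ on the strand of the gene. Capitals mark the matches on either strand to the motifs searched, which were RUNX (TGTGGT or TGCGGT), ETS (CCGGAA), SMAD (CAGACA), the SMAD palindrome (GTCTAGAC), the E-box (CANNTG), AP-1 (TGANTCA) and the CCAAT box (CCAAT).
Tgfbr1, peak in both lists: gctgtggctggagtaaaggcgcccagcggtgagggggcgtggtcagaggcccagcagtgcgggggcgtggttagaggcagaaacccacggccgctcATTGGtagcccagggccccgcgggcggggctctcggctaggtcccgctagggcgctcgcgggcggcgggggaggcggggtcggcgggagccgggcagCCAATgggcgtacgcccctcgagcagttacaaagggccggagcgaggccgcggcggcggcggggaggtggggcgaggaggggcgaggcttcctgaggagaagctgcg
Tgfbr2, peak in both lists: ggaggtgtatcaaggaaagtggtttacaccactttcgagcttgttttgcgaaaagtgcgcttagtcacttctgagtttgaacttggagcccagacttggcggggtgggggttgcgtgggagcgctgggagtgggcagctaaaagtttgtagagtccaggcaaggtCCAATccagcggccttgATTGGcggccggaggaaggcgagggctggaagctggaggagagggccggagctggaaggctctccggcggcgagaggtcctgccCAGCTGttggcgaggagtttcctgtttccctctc
Smad3, peak in both lists: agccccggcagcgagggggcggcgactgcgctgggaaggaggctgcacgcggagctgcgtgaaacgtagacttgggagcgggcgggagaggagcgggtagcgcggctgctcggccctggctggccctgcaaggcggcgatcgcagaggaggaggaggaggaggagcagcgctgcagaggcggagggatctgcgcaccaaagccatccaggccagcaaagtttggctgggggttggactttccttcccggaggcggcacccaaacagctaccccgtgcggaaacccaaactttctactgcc
Smad6, peak in both lists: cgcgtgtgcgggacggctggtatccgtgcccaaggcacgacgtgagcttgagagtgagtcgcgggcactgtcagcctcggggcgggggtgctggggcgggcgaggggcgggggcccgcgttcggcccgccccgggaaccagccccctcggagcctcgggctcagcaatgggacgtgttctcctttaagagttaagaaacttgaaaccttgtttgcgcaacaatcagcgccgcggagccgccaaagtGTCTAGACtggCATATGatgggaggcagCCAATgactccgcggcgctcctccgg
Tgfb1, no peak: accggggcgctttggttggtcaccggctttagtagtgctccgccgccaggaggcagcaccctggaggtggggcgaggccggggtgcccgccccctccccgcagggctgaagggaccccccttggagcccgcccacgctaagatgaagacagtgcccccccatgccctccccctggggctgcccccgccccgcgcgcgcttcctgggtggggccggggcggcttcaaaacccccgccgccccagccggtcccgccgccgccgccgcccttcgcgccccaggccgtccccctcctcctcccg
Mstn, no peak: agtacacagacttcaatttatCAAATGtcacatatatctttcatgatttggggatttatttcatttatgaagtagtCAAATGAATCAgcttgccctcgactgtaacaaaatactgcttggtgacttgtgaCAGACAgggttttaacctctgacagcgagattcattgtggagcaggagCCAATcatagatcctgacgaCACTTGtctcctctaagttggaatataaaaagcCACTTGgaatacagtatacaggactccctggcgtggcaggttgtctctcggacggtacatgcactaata

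The 4 open windows had a GC content of 74.7% (Tgfbr1), 59.0% (Tgfbr2), 67.7% (Smad3) and 66.3% (Smad6), with 34, 15, 25 and 31 CpG dinucleotides. Windows of the table that overlapped a WT peak had a median GC content of 62.0% and a median of 23 CpG, and windows without a WT peak had 49.3% and 4. The Mstn window, with a GC content of 41.3% and 6 CpG, lay on the side of the closed windows. The Tgfb1 window did not, since it had the highest GC content of the 8 (77.0%, 30 CpG) and still overlapped no peak. The remaining windows without a peak had 54.3% and 10 CpG (Tgfb2) and 52.0% and 3 CpG (second start of Tgfbr1). The palindrome GTCTAGAC, the symmetrical form of the SMAD binding sequence, was found at the Smad6 start site, with its first base at position -4 when the start base is 0, and is held by 0.213% of all windows. CAGACA was found in 3 of the 8 windows (Mstn, Tgfb2 and the second start of Tgfbr1), none of which overlapped a peak, and is held by 21.04% of all windows. Neither the RUNX letters (22.4% of all windows) nor the ETS letters (14.9%) occur in the 8 windows. The E-box, the sequence bound by myogenic factors such as MyoD, was found in 5 windows (72.3% of all windows) and 4 times in that of Mstn, where 1 match overlaps the AP-1 match. CCAAT was found in 6 windows (37.4% of all), and AP-1 in that of Mstn only (7.81% of all). A match describes the letters and is not a binding site.

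At least 1 WT peak was found at 9 of the 10 genes, beside 64.6% of 21627 protein-coding genes, and at least 1 KO peak at the same 9, beside 60.8%. The exception was Mstn. Of the 38 WT peaks, 25 were shared and 13 were WT-specific (34.2%, exact 95% interval 19.6 to 51.4), beside 27.3% of all WT peaks. Of the 24 KO peaks, 0 were KO-specific, which allows a share of up to 12.5%, beside 9.59% of all KO peaks. At these numbers of peaks, neither share could be told from that of its whole list. The intervals treat peaks as units, cover counting error only and describe the lists, not the genotypes.

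The 13 WT-specific peaks lay at 6 genes: 4 at Smad3, 3 each at Smad6 and Smad7, and 1 each at Tgfb1, Tgfb2 and Tgfbr1. Of the protein-coding genes with a WT peak, 39.1% had a WT-specific peak. The 3 Smads together held 10 of the 13, among 23 WT peaks, while the ligands held 2 among 10 and the receptors 1 among 4. Over all WT peaks the share was 27.3%, and the contrast by role was not tested. The 5 other Smads of the wider pathway list, given below, held 1 WT-specific peak among 8 WT peaks. Having 3 or more WT-specific peaks, as these 3 Smads did, was found at 4.16% of protein-coding genes with a WT peak. That count was not scaled for the number of peaks at a gene, and Smad3, with 12 WT peaks, has more occasions for a specific one. Tgfb3, Tgfbr2 and Fst had shared peaks only. No gene had a KO-specific peak, beside 12.3% of protein-coding genes with a KO peak.

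**Figure D1:**
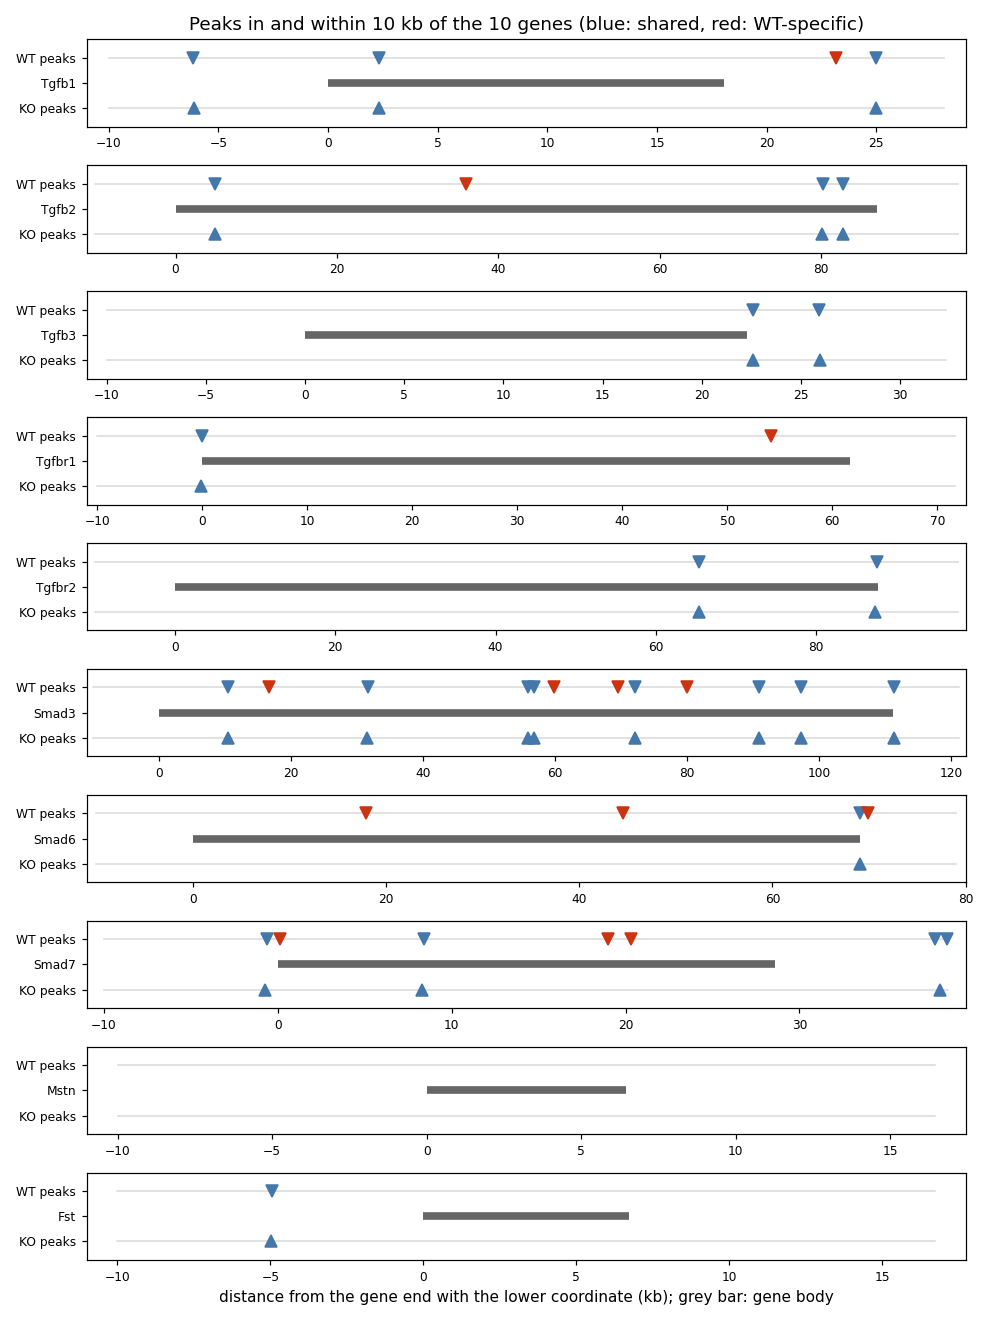
Position of every peak at the 10 genes, with the distance in kb from the gene end of lower coordinate on the x axis, the gene body as a grey bar, WT peaks above it and KO peaks below it. The red WT-specific peaks number 4 at Smad3, 3 at Smad6 and 3 at Smad7, every KO peak has a WT partner, and Mstn has no peak in the plotted window.

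Strength is given by 2 deposited values, the fold enrichment of a peak and its −log10 q. Both depend on library depth, so each value is read within its own list, as the percentile of the list's −log10 q. The median −log10 q was 16.1 over the WT list and 17.6 over the KO list. Values of the lists are set side by side below without drawing a change.

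Tgfb1, the most widely expressed of the 3 TGF-beta ligands, spans chr7:25687002-25705077. Its 1 peak inside the gene, at chr7:25689046-25689572, lay 2307 bp after the start site and was shared, with a fold of 9.82 and −log10 q of 24.1 in the WT list (percentile 68.1) and 8.79 and 20.8 in the KO list (percentile 59.2). The other 3 WT peaks of the Tgfb1 window were nearer to neighbouring genes. The shared peak at chr7:25680620-25681119 lay 89 bp from an end of B9d2, with −log10 q of 44.5 in the WT list and 38.9 for the KO partner. The shared peak at chr7:25711792-25712184 lay 876 bp from an end of Ccdc97 and had the highest −log10 q of all 38 peaks, 68.6 (fold 14.3), beside 47.8 for its KO partner. The WT-specific peak, at chr7:25710003-25710308, lay 957 bp from the same gene and had a fold of 6.45 and −log10 q of 19.2. It had the highest −log10 q of the 13 WT-specific peaks, at percentile 58.0 of the list. With only gene bodies, with a distance of 5 kb or with the nearest gene end, Tgfb1 had no WT-specific peak.

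Tgfb2 spans chr1:186622787-186709697 on the minus strand and had 4 WT peaks, all inside the gene. The only start site used for Tgfb2, at chr1:186705989, lies inside this gene body and not at its upper end. The peak nearest to that start site, at chr1:186705225-186705659, was centred 547 bp downstream of it and was shared. Its fold was 7.72 and its −log10 q 14.4 in the WT list, and 4.21 and 5.30 in the KO list. The shared peak at chr1:186702913-186703174 had −log10 q of 11.4 in the WT list and 14.7 for the KO partner. The shared peak at chr1:186627432-186627883 had 9.75 in the WT list and 4.98 for the KO partner. The WT-specific peak at chr1:186658678-186658993 lay 47154 bp downstream of the start and had a fold of 7.31 and −log10 q of 9.46. All 4 WT peaks were below the list median, from percentile 25.8 to 44.6, so Tgfb2 held weak peaks throughout.

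Tgfb3 spans chr12:86056743-86079041 and had 2 WT peaks and 2 KO peaks, which overlap each other. The peak at chr12:86078930-86079679 covered the upper end of the gene, with a fold of 8.39 and −log10 q of 18.1 in the WT list and 6.33 and 10.6 in the KO list. The peak at chr12:86082528-86082800 was nearer to Ift43, 103 bp from an end of that gene, and was weak in both lists, with −log10 q of 6.97 and 6.16. No peak was centred inside Tgfb3.

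Tgfbr1, the type I receptor, spans chr4:47353222-47414926. Its shared peak at chr4:47352923-47353454 covered the whole promoter window printed above, as did its KO partner at chr4:47352810-47353489. The fold was 13.5 and −log10 q 36.2 in the WT list (percentile 83.7), and 11.7 and 33.0 in the KO list (percentile 81.6). The WT-specific peak at chr4:47407257-47407471, inside the gene and 7562 bp from its upper end, was 215 bp wide with a fold of 6.95 and −log10 q of 7.95 (percentile 19.2). Thus the start site was among the stronger peaks of both lists, and the specific peak was among the weaker of its list.

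Tgfbr2, the type II receptor, spans chr9:116087695-116175363 on the minus strand and had 2 shared peaks and no specific peak. The promoter peak at chr9:116174865-116175645 was 781 bp wide, the widest of the WT peaks at the 10 genes, with a fold of 13.3 and −log10 q of 30.5, beside 10.6 and 23.2 for its KO partner. The peak inside the gene, at chr9:116152791-116153291 and 22322 bp downstream of the start, was stronger than the promoter peak in both lists. Its fold was 14.1 in both, with −log10 q of 52.0 in the WT list and 52.6 for the KO partner, at percentiles 92.9 and 94.9. Its −log10 q was the highest of the KO peaks at the 10 genes.

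Smad3, the receptor-activated transducer, spans chr9:63646766-63757994 on the minus strand and had the most peaks, 12 WT and 8 KO peaks, and each of the 8 was shared. The promoter peak at chr9:63757887-63758476 had a fold of 7.86 and −log10 q of 12.8 in the WT list (percentile 39.0) and 8.43 and 14.6 in the KO list (percentile 39.9), so the start site held a peak below the median of both lists. The strongest Smad3 peak of the WT list lay instead 13981 bp downstream of the start, at chr9:63743830-63744196, with a fold of 17.0 and −log10 q of 53.1 in the WT list (percentile 93.3) and 9.85 and 26.3 in the KO list (percentile 71.8). Its fold was the highest of the 38 WT peaks.

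The other 6 shared Smad3 peaks lay further into the gene. At chr9:63702533-63702908, −log10 q was 28.6 in the WT list (percentile 75.4) and 7.84 in the KO list (percentile 13.3). The neighbouring peak at chr9:63703443-63703687 had 7.52 in the WT list (percentile 17.2) and 10.2 in the KO list (percentile 22.8), so these neighbours stood in opposite order in the lists. At chr9:63678184-63678531 the values were 17.1 and 6.09, and at chr9:63737387-63737828 they were 19.4 and 11.8. At chr9:63656950-63657437, near the far end of the gene, they were 23.6 and 22.3, and at chr9:63718862-63718990 they were 11.4 and 14.5.

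The 4 WT-specific Smad3 peaks all lay inside the gene, from 31298 to 94539 bp downstream of the start. The peak at chr9:63716228-63716442 had a fold of 8.75 and −log10 q of 16.7, at percentile 51.8, and its fold was the highest of the 13. The peak at chr9:63726451-63726942 had 8.57 and 14.9. The peak at chr9:63663257-63663653 had 6.54 and 9.38. The narrowest, at chr9:63706487-63706651, was 165 bp wide with 4.65 and 6.46. Only the first of them was above the list median.

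Smad6, an inhibitory Smad, lies on the same chromosome at chr9:63953076-64022085, also on the minus strand, and 3 of its 4 WT peaks were WT-specific. The shared promoter peak at chr9:64021891-64022485 covered the window with the GTCTAGAC palindrome and had a fold of 10.5 and −log10 q of 33.7 in the WT list (percentile 81.5). Its partner at chr9:64021927-64022437 was the only KO peak at Smad6 and had a fold of 6.66 and −log10 q of 14.9 (percentile 41.1). The WT-specific peak at chr9:64022677-64023218 was centred at -888 bp from the start, upstream of it, with a fold of 6.67 and −log10 q of 14.6, and was the widest of the 13 at 542 bp. It lies less than 500 bp from the KO promoter peak, and counts as shared when a gap of 500 bp is allowed. The other WT-specific peaks lay inside the gene at chr9:63970883-63971121, with a fold of 5.77 and −log10 q of 7.76, and at chr9:63997453-63997712, with 6.03 and 6.81.

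Smad7, the inhibitory Smad induced by TGF-beta, spans chr18:75367365-75395935 and had 7 WT peaks and 3 KO peaks. At the lower end of the gene a shared peak at chr18:75366484-75366940 (fold 7.13, −log10 q 20.2 in the WT list and 20.9 for the KO partner) stood beside a WT-specific peak at chr18:75367355-75367651 (fold 4.27, −log10 q 7.11). The Smad7 peak with the highest −log10 q, shared and inside the gene at chr18:75375615-75375889, had −log10 q of 45.3 in the WT list and 34.9 for the KO partner, at percentiles 89.8 and 83.7, and a fold of 12.1 and 9.65. The other WT-specific peaks, also inside the gene, were at chr18:75386130-75386568 (fold 7.18, −log10 q 12.1) and chr18:75387466-75387845 (fold 4.62, −log10 q 5.51, the lowest of the 13). Beyond the upper end, the WT peaks at chr18:75404963-75405333 and chr18:75405742-75405961 both overlapped 1 KO peak of 1002 bp at chr18:75404958-75405959. The second of these WT peaks had the highest fold at Smad7, 15.3 (−log10 q 37.3), and the KO peak had a fold of 10.2 (−log10 q 22.3), also the highest of its list there. With a reciprocal overlap of 50% as the rule, the number of WT-specific peaks at Smad7 was 5.

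Mstn spans chr1:53061640-53068079 and had no peak within 10 kb, nor within 50 kb, in either list. The nearest WT peak was centred 216.7 kb from the gene, at chr1:52844736-52845240, and was shared. Fst spans chr13:114452262-114458989 and had 1 peak, at chr13:114447083-114447539, centred 4951 bp from the lower end of the gene. It was shared, with a fold of 14.2 and −log10 q of 32.0 in the WT list (percentile 79.6) and 12.4 and 25.6 in the KO list (percentile 70.5). Within 50 kb of Fst, each list held 2 peaks, 1 of them specific to its list. Within 10 kb, Mstn was thus without a listed peak in the growing myoblasts of both genotypes, and Fst had 1 shared peak.

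**Figure D2:**
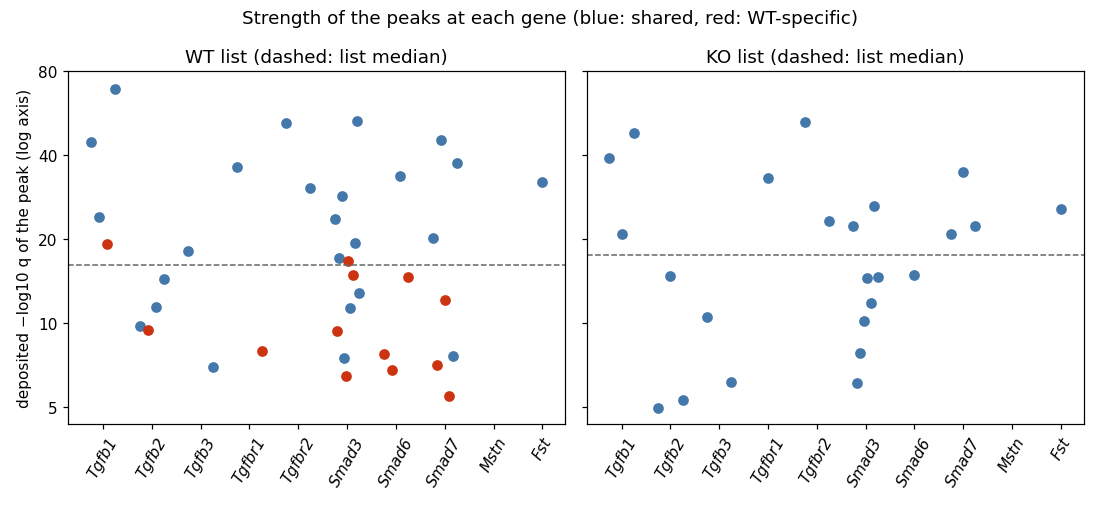
Deposited −log10 q of each peak on a log axis, by gene, in the WT list (left) and the KO list (right), each point 1 peak of the replicate 1 library and the dashed line the list median. Of the 13 red WT-specific peaks, 2 lie above the WT median of 16.1. The highest points are shared peaks, at Tgfb1, Smad3 and Tgfbr2 in the WT list and at Tgfbr2 and Tgfb1 in the KO list.

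Across the 10 genes the WT-specific peaks were the weaker and narrower ones. Their median −log10 q was 9.38 (range 5.51 to 19.2), against 23.6 (range 6.97 to 68.6) for the 25 shared WT peaks, and their median width was 306 bp against 442 bp. The ranges overlap. Over the whole WT list the medians were 8.38 and 21.1 for −log10 q and 250 and 424 bp for width. At or above the list median, 2 of 19 WT peaks at the 10 genes were specific (10.5%), beside 6.17% of all such WT peaks. These 2 lay at Smad3 and Tgfb1, and Smad6 and Smad7 had none. Strength thus moves with the specific class, and its part in the counts per gene was not tested.

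The WT list was divided into 4 equal classes ordered by −log10 q. In the weakest class, 6 of 9 peaks at the 10 genes were specific, beside 62.5% of all WT peaks of that class. In the next class it was 5 of 10, beside 34.4%, and in the third 2 of 8, beside 11.2%. In the strongest class it was 0 of 11, which allows up to 27.3%, beside 1.17%. In each class the share of the whole list lay inside the exact 95% interval of the 10 genes.

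**Figure D3:**
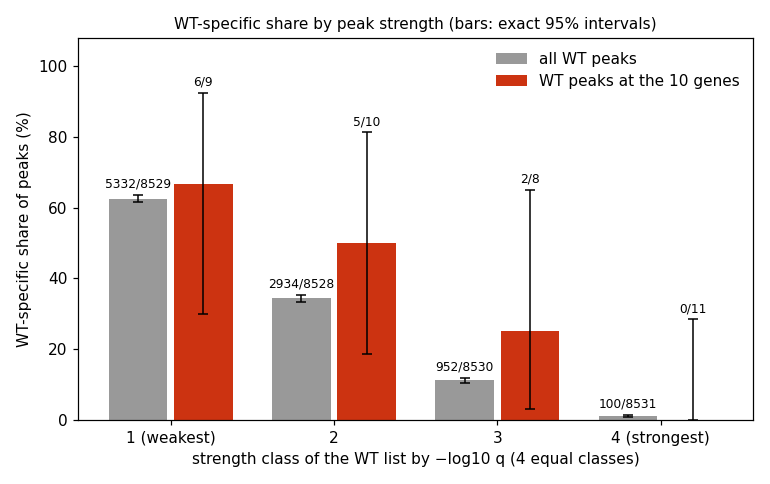
WT-specific share of peaks in percent, in the 4 strength classes ordered by −log10 q, for all WT peaks (grey) and the WT peaks at the 10 genes (red), with exact 95% intervals and the counts above each bar. The share falls from the weakest class (6 of 9) to the strongest (0 of 11) at the 10 genes, and from 62.5% to 1.17% over all peaks.

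Of the 13 WT-specific peaks, 11 were centred inside a gene body of the set and 3 lay within 1 kb of a protein-coding gene end, beside 13.3% of all WT-specific peaks. Of the 25 shared WT peaks, 14 were centred inside a gene body and 9 lay within 1 kb of a gene end, beside 29.9% of all shared WT peaks. The share inside gene bodies was not computed over all peaks. A peak entered the set only in or within 10 kb of a gene body, so the gene-body counts are not read as a trait of these peaks. The gene table gives neither exons nor introns, so the positions inside genes are not divided further.

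Peak numbers skip values along each chromosome, and the labels do not say why; calls taken out before deposit would leave such gaps. For all 13 WT-specific peaks the numbering of the flanking KO peaks skipped 1 or 2 numbers. Over the whole list, it skipped at least 1 number at 87.1% of the WT-specific peaks with KO peaks on either side. The stretches between those KO peaks ran from 8.71 kb at Smad7 to 120.6 kb at Tgfbr1. At Smad7, the specific peaks at chr18:75386130-75386568 and chr18:75387466-75387845 share 1 stretch with 1 missing number. A weak KO call at these sites that did not enter the deposited list cannot be told apart from no call.

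The wider pathway was read from a list of 50 other genes, all found in the gene table. At least 1 WT peak was found at 45 of them. Of their 144 WT peaks, 35 were WT-specific (24.3%, beside 27.3% of all WT peaks), and of their 115 KO peaks, 6 were KO-specific (5.22%, beside 9.59% of all KO peaks). A WT-specific peak was found at 18 of the 45 genes, beside 39.1% of protein-coding genes with a WT peak, and a KO-specific peak at 5 of the 43 with a KO peak, beside 12.3%.

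By role, WT-specific peaks numbered 4 of 7 at the other ligands, 12 of 35 at the other receptors, 1 of 8 at the other Smads, 17 of 80 at the inhibitors and regulators and 1 of 14 at the target genes. The genes named next were picked because they have at least 2 specific peaks of 1 genotype. The share of all genes that pass this rule was not computed. Of protein-coding genes with a WT peak, 4.16% had 3 or more WT-specific peaks, a share not scaled for the number of peaks. That share does not apply to Acvr2b and Ltbp1, which had 2. For the wider list, the nearest gene of a peak is not given. Ski, which encodes a nuclear repressor of Smad complexes, had 5 WT-specific peaks among 9. Those at chr4:155144221-155144444 and chr4:155148967-155149462 lay outside the gene body. Acvr1 and Bmpr1b, which encode type I receptors for bone morphogenetic proteins, had 4 among 10 and 4 among 7. Ltbp2 and Ltbp4, of the latent TGF-beta binding protein family, had 4 among 11 and 3 among 5. The WT-specific peaks of these genes were all below the median of the WT list, the highest at percentile 47.3 (Ski). Acvr2b, the main receptor for myostatin, had 2 WT-specific peaks, which were its only WT peaks, and its 1 KO peak was KO-specific. All of its 3 peaks were weak, with −log10 q of 6.47 and 9.88 for the WT peaks and 5.81 for the KO peak. The WT peak with 9.88 lay outside the gene body.

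Ltbp1 had 2 WT-specific peaks and 2 KO-specific peaks among 14 of each list. The other KO-specific peaks of the wider list were 1 each at Bmp7, which had no WT peak, Pmepa1 and Tgfbi, with −log10 q of 9.40, 5.39 and 4.24. The receptor-activated Smad2 and the common partner Smad4 each had 1 peak in each list, and both were shared. Among the classical targets, Ccn2, connective tissue growth factor, had 2 WT peaks, both shared.

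**Figure D4:**
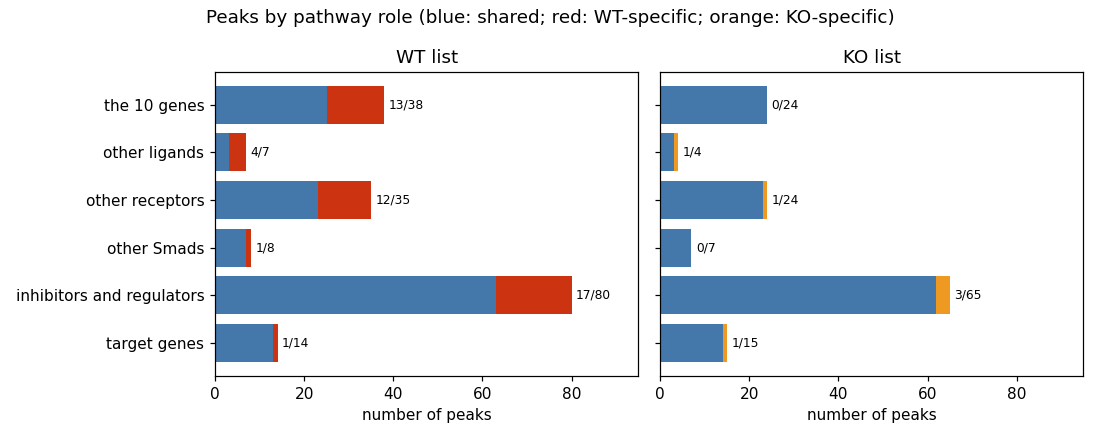
Number of peaks in the WT list (left) and the KO list (right) at the 10 genes and at 5 groups of other pathway genes, divided into shared (blue), WT-specific (red) and KO-specific (orange) peaks, with specific and total counts beside each bar. The 10 genes have 13 of 38 in the WT list and 0 of 24 in the KO list.

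Runx1 itself, the targeted gene, had 12 shared and 7 WT-specific peaks in the WT list (36.8% specific), beside 27.3% of all WT peaks. Its 12 KO peaks were all shared, beside 9.59% KO-specific over all KO peaks. The peak lists do not read the edited allele. Of 7 myoblast markers, 6 had a WT peak and 5 a KO peak, beside 64.6% and 60.8% of protein-coding genes. Myf5 had none in either list. A WT-specific peak was found at 3 markers, beside 39.1% of protein-coding genes with a WT peak. They were Itga7 (1 of 4 WT peaks), Chrna1 (1 of 3) and Pax7, whose 1 peak was WT-specific. Among markers of other cell types, Ptprc, Adgre1, Alb, Apoa1 and Krt5 had no peak in either list, while Pecam1, Cdh5, Kdr, Cd68 and Krt14 had 1 to 4 WT peaks. A WT-specific peak was among them at Pecam1, Kdr, Cd68 and Krt14, and Kdr had no KO peak. Cdh5 had 1 KO-specific peak among 2 KO peaks.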

How the data were processed

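ATAC-seq was done in 12 samples of 4 groups, and the 5 deposited peak lists cover growth medium. The build is mm10, per the submitters' processing notes. The aligner, peak caller, duplicate handling, Tn5 offset and filters are not given in the sources used here, and each can change the number and edges of peaks. The deposited fold enrichment (a ratio) and −log10 q are the authors' values per peak, laid out as in a narrowPeak file. No depth is known. All results were computed with Python 3.11.15 (scipy 1.17.1, pandas 2.3.3, numpy 2.4.6), and figures drawn with matplotlib 3.10.9. Overlaps, tested on simulated data, equalled those of bedtools 2.31.1 for 3 of 3 rules, and gave the same classes as the deposited lists for every peak. Genes came from RefSeq, GRCm38.p6, on the 20 chromosomes of the lists. The genes and lists were chosen with earlier results of these data known. All 10 genes are named with every specific peak. Of the wider list, genes with at least 2 specific peaks of 1 genotype or a KO-specific peak are named. Smad2, Smad4 and Ccn2 were added as core components and a target after their values were seen. Exact binomial (Clopper-Pearson) intervals were used, and a count of 0 was given the limit of 3 counts. Alternatives in distance, assignment, position, overlap and strength were computed.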

Additional observations from a re-analysis of the deposited data

How the results depend on the processing

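The WT-specific share at the 10 genes was 34.2% in the report. Under 7 of 8 alternatives, which reuse many of the same peaks, it ran from 30.6% (distance of 50 kb) to 44.7% (reciprocal overlap of 50%). With peaks at or above the list median of −log10 q it was 10.5% (2 of 19), and 2 genes (Smad3 and Tgfb1) had a WT-specific peak, since that alternative removes the weak peaks. The number of genes with a KO-specific peak, 0 in the report, was 2 within 50 kb (Smad6 and Fst), 4 with the nearest protein-coding gene end (these and Tgfb2 and Tgfbr2) and 3 with a reciprocal overlap of 50% (Smad3, Smad7 and Tgfb2). The first pair of settings takes in more distant peaks and the last removes partners. Shares over all peaks and genes were not computed under these rules, except for WT peaks at or above the list median (6.17% WT-specific). The shares of 27.3% and 12.3% given above belong to the main rule and are no measure for the alternatives. Counts per gene ranged from 1 to 6 WT-specific peaks at Smad3, 0 to 7 at Smad6, 0 to 5 at Smad7, 0 to 1 at Tgfb1, 0 to 3 at Tgfb2, 0 to 4 at Tgfbr1, 0 to 1 at Tgfb3 (1 within 50 kb) and 0 to 2 at Fst (1 within 50 kb, 2 with the nearest gene end), and were 0 under all 8 at Mstn and Tgfbr2. The use of the summit changed none of the counts. No replicate could be left out, because every peak is labelled replicate 1 of its genotype. No paired analysis was possible because the lists carry values of replicate 1 only. Unknown depth limits every statement about a missing peak.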

Other observations

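Smad3 and Smad6 lie on chromosome 9, with 175.1 kb between their windows. The stretch from the Smad3 window to the end of the Smad6 window, 395.3 kb long and singled out after its values were seen, held 11 WT-specific peaks among 25 WT peaks and 0 KO-specific peaks among 14 KO peaks, beside 27.3% of all WT peaks and 9.59% of all KO peaks. Between the windows themselves lay 9 WT peaks, of which 4 were specific, and 5 KO peaks. The other peaks of the stretch are those of Smad3 and Smad6 already counted above. Beyond the upper edge of the stretch, but within 50 kb of Smad6, lay 1 KO-specific peak.

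The lists of specific peaks carry a column without a name that repeats the start of some peaks. Of the 13 WT-specific peaks at the 10 genes, 1 was marked in this way, the peak inside Tgfb2, beside 10.7% of all WT-specific peaks. The labels do not explain it.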
